A study of Mus musculus with 4 samples.

Results

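Interferon-response macrophages were taken here as C1q-expressing macrophages from mouse glioma that carried many transcripts of 5 interferon-induced genes. A cell was a member when it had 500 or more detected genes and under 10% mitochondrial UMIs (unique molecular identifiers, each 1 captured transcript). It needed at least 30 UMIs of the complement genes C1qa, C1qb and C1qc, under 2 UMIs of the microglial genes P2ry12, Tmem119, Crybb1 and Sall1, and none of the lymphocyte genes Cd3e and Cd79a. It also needed under 4 UMIs of the hypoxia genes Hilpda, Ndrg1 and Egln3 and at least 15 UMIs of Rsad2, Cmpk2, Ifit1, Ifit2 and Ifit3 together. Of 13960 barcodes, 259 met the rule, 119 from wild-type (WT) and 140 from CaMKK2 knockout (KO) mice. The 1046 cells that met every part of the rule except the last are called the other C1q-gated macrophages.

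The study implanted CT2a cells, a mouse glioma line, into the brains of adult female mice of the C57Bl/6 strain background, either CaMKK2 WT or CaMKK2 KO. The knockout is constitutive, in every tissue of the host, while the implanted tumor cells are the same in both groups. On day 14 the hemisphere with the tumor was taken, and live CD45+ cells (CD45 marks all leukocytes) were sorted. Cells were hashtagged by mouse, and each genotype's 4 mice were pooled and run in 1 10X channel, so genotype and channel cannot be told apart. The methods list purchased C57BL/6J mice and a CaMKK2 KO line provided by another laboratory, and do not say whether the WT mice were littermates. Inherited differences between WT and KO mice other than the knockout therefore cannot be told apart from it either. Hashtag antibodies gave a mouse of origin to 109 WT and 130 KO members and to 963 of the other C1q-gated macrophages. A further 20 members carried hashtags of more than 1 mouse and were left out of every comparison. WT mouse 1 gave only 4 members, under the minimum of 10 cells set for a mouse. Comparisons of expression that use the members therefore rest on 3 WT and 4 KO mice, with 249701 to 668056 UMIs summed per mouse. The WT and KO libraries shared 42 barcode sequences, 1 of them on a member.

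Type I interferons bind the receptor made of Ifnar1 and Ifnar2, which activates the kinases Jak1 and Tyk2 and, through them, transcription factors of the STAT family, among them Stat2. Together with Irf9 these form a complex that binds interferon-stimulated response elements (ISREs) in the promoters of interferon-stimulated genes. Interferon gamma signals through Ifngr1 and Ifngr2 and leads to binding of a different element (GAS). Rsad2 (viperin) and its neighbour Cmpk2 make an antiviral nucleotide, and the Ifit proteins bind foreign RNA.

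Of the 5 rule genes and Isg15, 4 of 6 held the ISRE letters in their promoter window, and Cmpk2 and Ifit2 did not. The stretches around the letters are shown for these 4 and for 4 genes that the choice of cells did not use. They were read from RefSeq promoter windows (250 bases before to 50 after the start, build GRCm38.p6), 5′ to 3′ on the strand of the gene, with capitals marking the ISRE letters GAAA, any 2 bases and GAAA on either strand (TTTC, any 2 bases and TTTC when read from the other strand). Rsad2 (chr12:26456543-26456592, minus strand), Isg15 (chr4:156200855-156200916, minus strand), Ifit1 (chr19:34640765-34640833, plus strand) and Ifit3 (chr19:34583353-34583436, plus strand) belong to the rule or its marker list. Ifit3b (chr19:34607749-34607832, plus strand), Cxcl10 (chr5:92349073-92349122, minus strand), Slfn9 (chr11:82991846-82991895, minus strand) and Ifi208 (chr1:173673587-173673636, plus strand) were among the 12 genes most raised in the members, counting those past an adjusted p of 0.05 that held 20 CPM or more in the higher group and were higher in every mouse. Of these 12 genes, 11 had a promoter window and 6 held the ISRE letters.
Rsad2: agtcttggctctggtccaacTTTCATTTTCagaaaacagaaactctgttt
Isg15: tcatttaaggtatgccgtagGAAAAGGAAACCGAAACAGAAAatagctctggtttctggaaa
Ifit1: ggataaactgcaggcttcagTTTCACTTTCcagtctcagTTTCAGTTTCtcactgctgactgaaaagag
Ifit3: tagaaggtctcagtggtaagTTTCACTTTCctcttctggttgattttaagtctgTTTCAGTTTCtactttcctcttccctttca
Ifit3b: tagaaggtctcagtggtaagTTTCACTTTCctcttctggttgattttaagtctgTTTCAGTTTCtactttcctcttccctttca
Cxcl10: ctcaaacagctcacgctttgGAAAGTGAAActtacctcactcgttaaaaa
Slfn9: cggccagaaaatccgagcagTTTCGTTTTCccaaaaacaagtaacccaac
Ifi208: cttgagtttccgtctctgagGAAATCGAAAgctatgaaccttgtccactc
In Isg15, 3 matches overlap in 1 run of capitals. The 84 bases printed for Ifit3 and Ifit3b are identical. Over all 32851 promoter windows, 3.44% held the ISRE letters on either strand, against 3.84% of 7209 windows of the genes tested below. The share was 13.1% of 664 windows of the genes that were higher in the members, 27.6% of 185 windows of those higher by more than 1 on the log2 scale and 3.77% of 716 windows of the genes that were lower. The GAS letters TTC, any 3 bases and GAA were in 8.30%, 6.76%, 7.83%, 11.4% and 6.42% of the same sets of windows. The windows of the interferon-inducible GTPase genes held the ISRE letters in 11 of 14 cases and those of the Ifi200 family in 10 of 14. Fewer held them in other lists whose tested genes were all higher, namely 0 of 4 windows of the ISG15 conjugation genes and 1 of 4 of the poly-ADP-ribose polymerase genes. The antiviral effectors held them in 20 of 49 windows, the sensors and adaptors in 5 of 15, the IRFs in 1 of 9 and the MHC class II genes in 0 of 8. The GAS letters were in 6 of 14 windows of the GTPase genes, 1 of 14 of the Ifi200 family and 3 of 9 of the IRFs. They were in 7 of 49 windows of the antiviral effectors, 2 of 15 of the sensors and adaptors and 1 of 8 of the class II genes. A match in these letters is a description of the sequence and not a binding site.

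The members expressed the genes they were chosen for in each of the 7 mice, which is a description, since the rule used them. Levels are in CPM, UMIs of a gene scaled to 1000000 UMIs in all. Rsad2 stood at 687, 901 and 799.5 CPM in WT and 1093, 997, 721 and 862 CPM in KO mice. Among the other C1q-gated macrophages it stood at 36.1, 44.5 and 22.1 CPM in WT and 17.9, 30.4, 29.3 and 69.8 CPM in KO mice. Ifit3 ranged over 783 to 1100.5 CPM in the members and 51.3 to 125 CPM in the others, and Ifit1 over 456 to 803 CPM and 18.7 to 94.4 CPM. Isg15, a ubiquitin-like protein attached to other proteins, is on the marker list but not in the sum. It stood at 1563, 1755 and 1742 CPM in WT and 2003, 1947, 1766 and 2214 CPM in KO mice in the members. In the others it stood at 190.0, 309 and 180.5 CPM in WT and 292, 378, 159 and 536 CPM in KO mice. The members held a median of 37 UMIs of the 5 genes, with a range from 15 to 256 and quartiles of 21.5 and 60, and the other macrophages a median of 1, with 37.1% of them at 0. Just inside the threshold 38 cells had 15 to 19 UMIs and 1104 CPM of Isg15, and just outside it 82 cells had 10 to 14 UMIs and 790.0 CPM, so the threshold divides a gradient.

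The members held the macrophage markers that the rule left free. Their median depth was 14396 UMIs per cell against 13830, higher in 5 of 8 mice (exact sign-flip permutation test within mice, two-sided, p = 0.227). The adjusted p was 0.453 over the 4 exact tests of this kind. The median of summed C1q UMIs, which the rule bounds from below in both groups, was 151 against 156. The macrophage markers Mertk, Adgre1, Fcgr1, Csf1r and Cd68 were all detected in the members. Levels of marker lists are given here as the mean ± SD over 7 mice, members first. The rule itself sets Cd3e and Cd79a to 0 and limits the microglial genes, and the other markers of cells that the sort or gate could hold were low. Dendritic cell markers summed to 7.83 ± 5.40 CPM against 9.45 ± 5.50 CPM (6 of 6 detected, Flt3 most). Plasmacytoid dendritic cell markers summed to 7.72 ± 2.80 against 6.69 ± 3.81 CPM (5 of 5, Pacsin1 most), and glial or tumor markers to 1.23 ± 1.93 against 1.94 ± 1.77 CPM (2 of 5, Sox2 most). T cell markers summed to 13.7 ± 5.77 against 16.5 ± 3.92 CPM (4 of 5, Cd3d most). NK cell markers summed to 18.8 ± 9.55 against 35.2 ± 35.5 CPM (5 of 5, Gzma most), and neutrophil markers to 73.8 ± 20.0 against 70.6 ± 21.8 CPM (4 of 5, Csf3r most, Retnlg at 0). B cell markers summed to 59 ± 21.8 against 102 ± 36.5 CPM (3 of 5, Ighm most, Ms4a1 at 0) and endothelial markers to 61.1 ± 28.7 against 43.3 ± 11.1 CPM (3 of 4, Flt1 most, Cldn5 at 0). Classical monocyte markers were the exception, at 5323 ± 1374 against 2950 ± 1384 CPM, and are taken up below.

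Interferon-response macrophages were found in every mouse, at a share that varied widely between mice of 1 genotype. Of the C1q-gated macrophages under the microglial and hypoxia limits, they made up 4.21%, 22.9%, 26.9% and 18.8% in the 4 WT mice and 18.3%, 21.1%, 11% and 34.4% in the 4 KO mice, from 95 to 208 cells a mouse. WT mouse 1, with 4 of 95 cells, was the lowest (95% Wilson interval 1.65% to 10.3%, counting error only), KO mouse 4, with 45 of 131, the highest (26.8% to 42.8%), and the genotypes overlapped. The means were 18.2% ± 9.89 in WT and 21.2% ± 9.74 in KO mice (SD, n = 4 each), a difference of 3.00 percentage points (two-sided exact permutation test, p = 0.714, where the smallest p that 4 against 4 mice allow is 0.0286). Without WT mouse 1 the difference was -1.66 points (p = 0.743) and without KO mouse 4 it was -1.39 points (p = 0.857, exact permutation tests of 3 against 4), so its sign rested on single mice. As a share of all barcodes that passed the gene and mitochondrial limits, the means were 1.85% and 2.24%, a difference of 0.392 points (exact permutation test, p = 0.6).

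**Figure D1:**
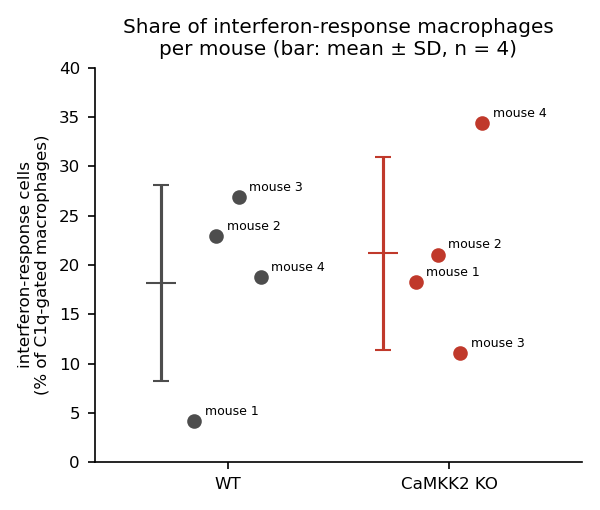
Share of interferon-response cells among C1q-gated macrophages (%) for each mouse, with 4 WT mice in grey and 4 CaMKK2 KO mice in red, and the mean ± SD beside each group. WT mouse 1 (4.21%) and KO mouse 4 (34.4%) are the extremes, and the genotypes overlap.

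Cells with 15 or more UMIs of the 5 genes also occurred outside this gate. Among C1q-gated cells with 2 or more microglial UMIs they made up 15.0% ± 5.49 (mean ± SD over 8 mice), among hypoxic C1q-gated cells 17.0% ± 10.7 and among cells with under 30 C1q UMIs and no Cd3e or Cd79a 17.7% ± 9.91, against 19.7% ± 9.23 in the gate itself. For these 3 the difference from the gate did not pass an exact sign-flip permutation test within the 8 mice (p = 0.332, 0.344 and 0.332 after Benjamini-Hochberg adjustment over the 5 gates compared). Lymphocytes held far fewer such cells, 3.08% ± 2.34 of cells with Cd3e and 0.974% ± 2.75 of cells with Cd79a, lower than the gate in 8 of 8 mice (adjusted p = 0.0195 for each by the same exact test). Here and below, cells with Cd3e are those with 2 or more UMIs of it, and cells with Cd79a those with 3 or more. Both also had under 5 C1q UMIs. Among cells with Cd79a only KO mouse 4 held any, 6 of 77 cells. The lymphocytes also had fewer UMIs per cell, with a median of 9225 UMIs in WT and 9327 in KO cells with Cd3e, and 3607 and 5123 in those with Cd79a. The part of depth in that difference was not tested.

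To describe what else sets these cells apart, UMIs were summed per mouse in members and in the other C1q-gated macrophages, and genes were compared within mice by edgeR's quasi-likelihood test with mouse as a block and Benjamini-Hochberg adjustment over all genes tested. The 18 genes of the rule and marker list were taken out of the counts and library sizes. Since the cells were chosen for 5 genes of the interferon response, a higher level of other genes of that response describes genes that vary together from cell to cell, and the adjusted p tells only how steady this was over 7 mice. Of 6956 genes tested, 621 were higher (8.93%) and 686 lower (9.86%) at an adjusted p under 0.05, and the median log2 fold change of all genes was -0.10. With TMM scaling the split was 722 higher and 367 lower, so the number of lower genes depended on the scaling. With DESeq2, which changes the test as well as the scaling, it was 604 and 123. All 621 higher calls were kept with TMM scaling and 585 with DESeq2.

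Hardly any interferon transcripts were found in the members. All 20 interferon ligand genes on the list were in the files, and only 2 had any UMI in the members, Ifnb1 with 6 UMIs in 1 cell and Ifng with 3 UMIs in 3 cells, against 66 and 7423 UMIs over all cells given to a mouse. The other C1q-gated macrophages also held only these 2, with 2 UMIs of Ifnb1 and 14 of Ifng. Of the receptor and JAK-STAT genes, 5 of 12 tested were higher and 1 lower, with a median of 0.04. Stat2, which joins the ISRE-binding complex, stood at 66.1, 75.8 and 67.7 CPM in WT and 85.5, 109.7, 67.4 and 128 CPM in KO mice among the other macrophages. In the members it stood at 240.0, 237 and 282 CPM in WT and 204, 233, 252 and 257 CPM in KO mice. On the log2 scale the fold change was 1.52 ± 0.12 (adjusted p = 3.36e-09). Every mouse showed the rise, and the groups of cells did not overlap. Jak2 rose by 0.83, Stat3 by 0.28 and Irf9 by 0.35, the last 2 no longer past the threshold without each of WT mice 2, 3 and 4 and KO mice 1 and 3 or with DESeq2. Stat3 kept its call in only 7 of 21 alternative settings and Irf9 in 13 of 21. The type I receptor genes Ifnar1 (log2 fold change -0.08, adjusted p = 0.621) and Ifnar2 (0.03, adjusted p = 0.863) did not pass the test. Ifngr1, the ligand-binding chain of the interferon gamma receptor, was lower in 7 of 7 mice (as were 9.3% of all genes tested, while 7.12% were higher in 7 of 7), at 121 to 190.2 CPM against 215 to 307 CPM (log2 fold change -0.68 ± 0.09, adjusted p = 4.70e-06).

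**Figure D2:**
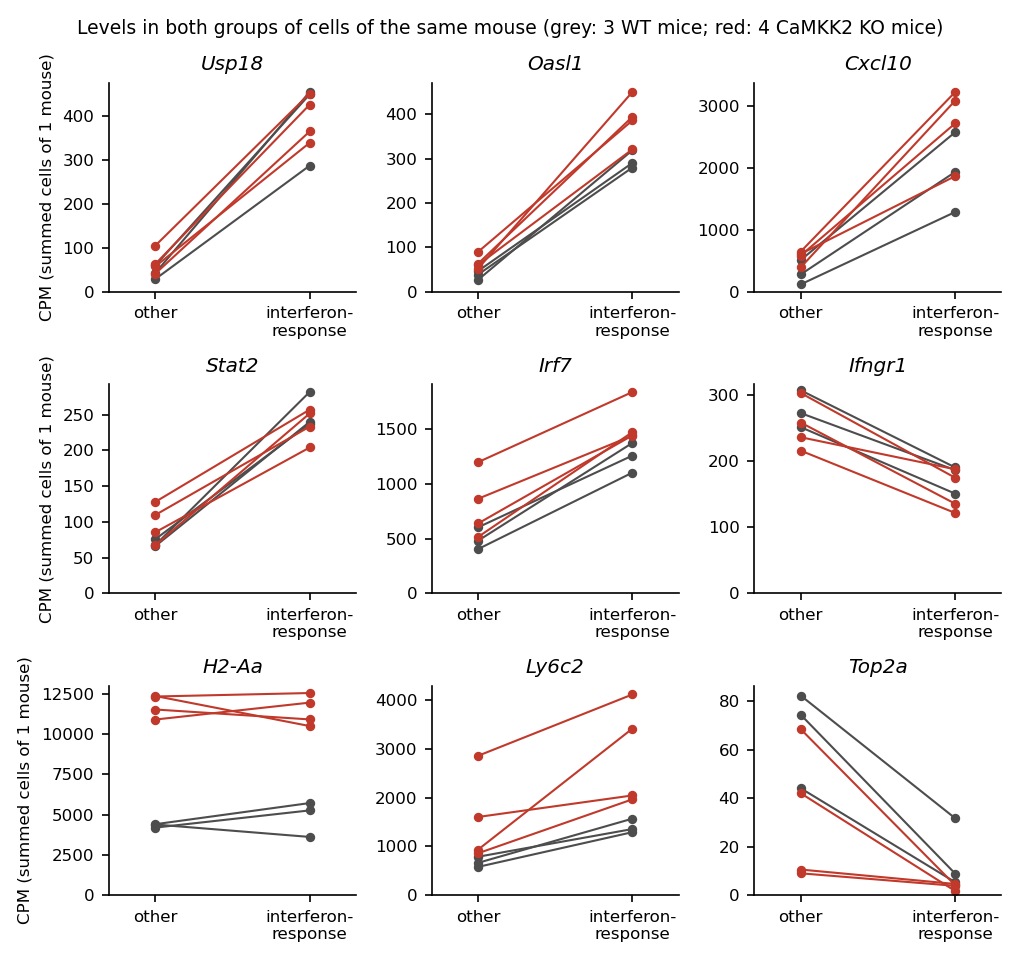
CPM of 9 genes in the other C1q-gated and the interferon-response macrophages, with a line joining both groups of cells of each mouse (3 WT mice in grey, 4 CaMKK2 KO mice in red). Usp18, Oasl1, Cxcl10, Stat2, Irf7 and Ly6c2 are higher and Ifngr1 and Top2a lower in 7 of 7 mice, while H2-Aa separates the genotypes and not the groups of cells.

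Of 6 interferon regulatory factors (IRFs) tested 4 were higher, and of 19 sensors of nucleic acids and their adaptors 12. Irf7, which drives interferon alpha genes and is itself interferon-induced, went from 404 to 1196 CPM to 1101 to 1836 CPM (log2 fold change 1.15 ± 0.09, adjusted p = 8.01e-09). Irf1 (log2 fold change 0.93) and Irf2 (0.46) also rose. So did Irf8 (0.30), whose call was lost without each of WT mice 2, 3 and 4 and KO mice 1 and 3. Irf3 and Irf5 did not pass the test (-0.31 and 0.22). None of the sensor and adaptor genes was lower (median 0.74). The higher ones included the cytosolic RNA sensors Ddx58 (RIG-I) and Ifih1 (MDA5). Ddx58 stood at 50.6 ± 10.9 CPM in the other and 195 ± 32.3 CPM in the interferon-response macrophages (log2 fold change 1.95 ± 0.13, adjusted p = 4.14e-10). Ifih1 stood at 81.0 ± 15.1 CPM in the other and 294 ± 34.0 CPM in the interferon-response macrophages (log2 fold change 1.87 ± 0.11, adjusted p = 3.78e-11). Zbp1, which senses Z-form nucleic acids (1.40), the RNA-dependent kinase Eif2ak2 (1.37), Dhx58 (1.37), Cgas (1.02) and the endosomal receptors Tlr3 (1.56) and Tlr7 (0.74) rose as well. The adaptors and kinases Mavs, Sting1, Ticam1, Tbk1 and Ikbke, which pass the sensors' signals on, had log2 fold changes from -0.27 (Mavs) to 0.22 (Ikbke) and did not pass the test.

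Most antiviral effectors were higher in the members. Of 41 tested, 36 were higher and none lower, with a median log2 fold change of 1.35, and 36 were called with TMM scaling and 36 with DESeq2. Oasl1, of the family of 2′-5′ oligoadenylate synthetases, stood at 26.7, 46.6 and 38.6 CPM in WT and 60.5, 63.2, 52.1 and 89.8 CPM in KO mice among the other macrophages. In the members it stood at 319, 291 and 280.1 CPM in WT and 321, 395, 451 and 386 CPM in KO mice. This was a log2 fold change of 2.72 ± 0.12 (adjusted p = 1.36e-12), and the groups of cells did not overlap. Ifit3b and Ifit1bl1, neighbours and near copies of the rule genes Ifit3 and Ifit1 whose reads may be split with them, had the largest rises (3.95 and 3.47 on the log2 scale). Slfn9 of the Schlafen family (2.36), the exonuclease Isg20 (2.17) and Helz2 (2.04) rose by more than 2. The membrane proteins Ifitm3 (0.70) and Ly6e (0.37) and Ifi27l2a (0.65), which the other macrophages also held at a mean of 3589, 2152 and 1677 CPM, rose by less than 1. Among those that did not pass the test were Ifitm1, Ifitm2, Ifitm6 and Apobec1, at -0.15 (Ifitm1) to 0.32 (Ifitm6). Trim30c (2.69), a member of a family of close paralogs, and Gm13822 (2.46), a noncoding gene that overlaps Oasl1 by 38 bases, were also among the 12 genes most raised.

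In several gene families of the response every tested gene was higher, and some of these families lie in single stretches of the genome (GENCODE M21, GRCm38). All 13 genes of the Ifi200 family, DNA-binding proteins encoded between positions 173350879 and 174031810 of chromosome 1, were higher, with a median of 1.88; their close sequences can split reads among them. Ifi204 rose from 209.8 to 436 CPM to 880.1 to 1073 CPM (log2 fold change 1.70 ± 0.10, adjusted p = 4.11e-11). All 16 tested interferon-inducible GTPases, which attack the vacuoles of intracellular microbes, were higher (median 1.32; 18 of 21 with a filter of 50 UMIs and 13 of 16 without mouse as a block), among them Ifi47 (log2 fold change 1.91 ± 0.11, adjusted p = 4.79e-11), Gbp2 (1.34), Gbp7 (1.18) and Iigp1 (1.35). They include the 4 tested Gbp genes on chromosome 3 and the 4 tested on chromosome 5 (5 Gbp genes of the files lie in each stretch). All 6 poly-ADP-ribose polymerase genes and partners of the response were higher (median 1.54), with Parp14 at 156 ± 44.8 CPM in the other and 458 ± 22.7 CPM in the interferon-response macrophages. So were the 6 tested of 9 Slfn genes on chromosome 11 and the 4 tested of 9 Oas genes on chromosome 5. In none of these stretches was a tested gene of another family found between the members, so whether a neighbour would move with them was not measured here.

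The tested genes of Isg15 conjugation were higher in the members, as were 5 of 11 negative regulators of the pathway. Usp18, which strips Isg15 from proteins and blocks the type I receptor, stood at 28.8, 59.8 and 42.8 CPM in WT and 63.2, 57.6, 41.2 and 105 CPM in KO mice among the other macrophages. In the members it stood at 288, 450.1 and 456 CPM in WT and 427, 339.7, 366 and 452 CPM in KO mice. The log2 fold change was 2.85 ± 0.12 (adjusted p = 9.45e-13). It belongs to the 5 tested genes of Isg15 conjugation, all higher (median 1.37), with the ligase Herc6 (2.32), the conjugating enzyme Ube2l6 (1.37) and Usp25 (1.02). None of the 11 negative regulators was lower. Socs1, an inhibitor of JAK kinases, rose by 1.67 (adjusted p = 3.20e-07), and Socs3, which restrains Stat3, had 0.28 (adjusted p = 0.114). The RNA-editing enzyme Adar (0.98), Tnfaip3 (0.55, lost without WT mouse 3) and Ptpn6 (0.20, lost without each of WT mice 2, 3 and 4 and KO mice 1 and 4) were the others that rose.

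**Figure D3:**
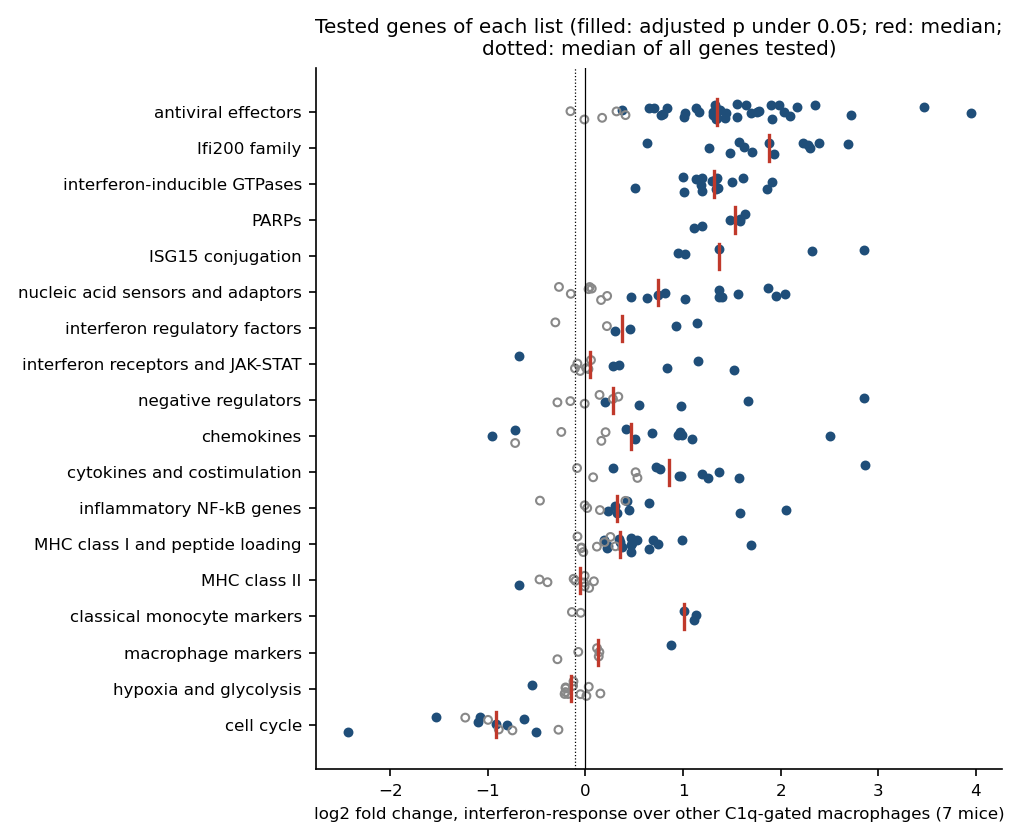
Log2 fold change of interferon-response over other C1q-gated macrophages (7 mice) for each tested gene of 18 lists, filled where the adjusted p was under 0.05, with each list's median in red. All genes of the Ifi200, GTPase, PARP and ISG15 conjugation lists lie to the right, MHC class II genes lie around 0 and cell cycle genes to the left.

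Secreted signals were divided. Of 14 chemokine genes tested, 8 were higher and 2 lower. The counts were 3 and 0 without mouse as a block, and 6 and 0 when the members needed 30 UMIs. Cxcl10, a ligand of Cxcr3 on activated T and NK cells, stood at 118, 512 and 279 CPM in WT and 393, 648, 585 and 611 CPM in KO mice among the other macrophages. In the members it stood at 1288, 2578 and 1936 CPM in WT and 3089, 3228, 2721 and 1868 CPM in KO mice. On the log2 scale the fold change was 2.51 ± 0.13 (adjusted p = 1.64e-11). Cxcl9, which binds the same receptor, rose by 0.68 (adjusted p = 4.74e-04). Its call was kept in 18 of 21 alternative settings and lost, among others, when the members needed 30 UMIs. The monocyte attractants Ccl2 (1.10) and Ccl12 (0.95) rose in 7 of 7 mice and Ccl7 (0.97) in 5 of 7 (not called with DESeq2). The inflammatory chemokines Ccl3 (0.51) and Ccl4 (0.99) rose too. Both the neutrophil attractant Cxcl2 (-0.72) and Cxcl14 (-0.96) fell, and lost their calls when the members needed 30 UMIs. Cxcl2 also lost its call with a microglial limit of 10 UMIs. Ccl5 (0.42, adjusted p = 0.0482) kept its call in only 9 of 21 alternative settings. That call was lost, among others, with DESeq2 and without each of WT mice 2 and 3 and KO mice 2, 3 and 4. Of 14 cytokine and costimulation genes, 10 were higher, led by Tnfsf10 (TRAIL, a death ligand, 2.87) and followed by Cd40 (1.57), Il27 (1.25), Cd274 (PD-L1, 0.96) and the interleukin 1 antagonist Il1rn (0.76). Of 13 inflammatory NF-kB genes, 8 were higher, with Nos2 at 2.05 and Acod1 at 1.59 well above Il1b at 0.33, whose call was lost without each of WT mice 2, 3 and 4 and KO mouse 3.

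Antigen presentation separated by class. Of 24 class I and peptide loading genes, 16 were higher and none lower, but by little. The median was 0.35, with B2m at 0.22 (adjusted p = 0.00172), H2-K1 at 0.19 (adjusted p = 0.0149, lost without WT mouse 2) and the transactivator Nlrc5 at 0.99. Without mouse as a block 4 genes of the list were called. Of 10 class II genes none was higher and 1, H2-DMb2, was lower (-0.68, not called with DESeq2). H2-Aa had a log2 difference of 0.04 ± 0.07 (adjusted p = 0.736), higher in 4 mice and lower in 3, and Cd74 -0.01 ± 0.06 (adjusted p = 0.95).

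Of 5 classical monocyte markers tested 3 were higher in the members and none lower, and 2 were higher without mouse as a block. Ly6c2, the surface marker of inflammatory monocytes, stood at 786, 577 and 660.3 CPM in WT and 857, 1602, 931 and 2857 CPM in KO mice among the other macrophages. In the members it stood at 1354, 1290.0 and 1567 CPM in WT and 1964, 2044, 3416 and 4117 CPM in KO mice. This was a log2 fold change of 1.02 ± 0.12 (adjusted p = 1.35e-06). Every mouse showed the rise. Plac8 rose by 1.11 (adjusted p = 6.06e-08) and Chil3 by 1.13 (adjusted p = 1.33e-05), while Ccr2, the receptor for Ccl2, had -0.05 (adjusted p = 0.756) and F13a1 -0.14 (adjusted p = 0.586). Ly6c2 is itself known to respond to interferon, and how far cell stage or the response set these levels was not tested. Of 6 macrophage markers, Fcgr1, the high-affinity Fc receptor and an interferon-induced gene, was higher (log2 fold change 0.88 ± 0.08, adjusted p = 1.73e-08), and Csf1r had -0.07 and Mertk 0.14, neither past the threshold. Hypoxia and glycolysis genes, part of whose list the rule limits, gave 0 higher and 1 lower of 12.

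Some cell cycle genes were lower in the members. Of 13 cell cycle genes tested, 8 were lower and none higher (median -0.92), and 4 were lower with TMM scaling and 4 with DESeq2. Without mouse as a block 2 of 13 were lower. With outlying cells left out (over 3 scaled median absolute deviations in depth, genes found or mitochondrial share) it was 4 of 11, and with the cells of highest doublet (Scrublet) scores left out 5 of 11. With cells thinned to 10000 UMIs it was 4 of 6 and with a filter of 1000 UMIs 3 of 4. Without KO mouse 1, KO mouse 3 or WT mouse 4 the count was 4 of 10, 4 of 11 and 4 of 11, and without KO mouse 4 it was 10 of 12. Top2a, which untangles DNA in dividing cells, stood at 82.3, 74.4 and 44.1 CPM in WT and 42.0, 8.96, 68.4 and 10.5 CPM in KO mice among the other macrophages. In the members it stood at 31.7, 8.86 and 5.32 CPM in WT and 1.67, 3.80, 4.06 and 4.56 CPM in KO mice. The log2 fold change was -2.44 ± 0.28 (adjusted p = 9.51e-07). It was lower in 7 of 7 mice, but KO mice 2 and 4 held little of it in either group. Summed over the 8 mice and by UMIs of the 5 rule genes, Top2a went up below the threshold, from 32.0 CPM at 0 UMIs to 46.6, 50.9 and 71.1 CPM at 1 to 4, 5 to 9 and 10 to 14 UMIs. It stood at 5.33 CPM at 15 to 19 and at no more than 9.70 CPM in the bins above, so it did not follow the gradient. Tubb5 (-0.63), Hmgb2 (-0.50) and Stmn1 (-1.11) were also lower. Among called genes that held 20 CPM or more in the higher group and were lower in each of the 7 mice, which leaves out lower genes such as Spp1, the 12 of lowest fold change were H1f5, Top2a, Mgl2, Mettl1, Incenp, St8sia4, Myc, Htra3, Tspan4, Atad3a, Nop2 and Spn. They went from -2.58 for the linker histone H1f5 to -1.11 for Spn, and at means of 20.4 CPM (Nop2) to 56.9 CPM (St8sia4) in the other macrophages. Mgl2, a lectin of alternatively activated macrophages (-1.73), was among them. Of 18 disease-associated microglia and lipid genes tested, 4 were higher and 4 lower (median -0.03), Spp1 (-1.31) and Trem2 (-0.41) among the lower, and Apoe had -0.18 (adjusted p = 0.0813). Apoe was called lower in 6 of 21 alternative settings, at -0.70 with a threshold of 30 UMIs for the members and from -0.17 to -0.23 in the other 5. Spp1 was uneven along the rule genes' UMIs, with 148 CPM at 10 to 14 and 789 CPM at 15 to 19 UMIs.

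Along the gradient of the 5 rule genes, other genes of the response climbed at different points, which is given as a description with no test. Summed over all 8 mice, Usp18 went from 16.7 CPM in 357 cells with 0 UMIs to 89.7 in 146 cells with 5 to 9 UMIs, 167 in 38 cells with 15 to 19 and 649.9 in 60 cells with 60 or more. Tnfsf10 went from 2.44 to 13.1, 14.2 and 81.5 CPM and Cxcl10 from 305 to 695, 1479 and 4662 CPM over the same bins. Cxcl10 did not climb at each step, with 828 CPM in 61 cells with 20 to 29 UMIs, and Ly6c2 was highest at 30 to 59 UMIs (2767 CPM) and stood at 1559 CPM at 60 or more. Irf7 went from 354 to 878, 1294 and 1488 CPM and Ifitm3 from 2379.8 to 4139, 5522 and 5624 CPM, so most of their climb lay below the threshold of 15 UMIs. H2-Aa moved from 7027 to 8995, 8890.0 and 8414 CPM, while the share of KO cells in the 8 bins went from 44.8% at 0 UMIs to 63.4% at 10 to 14 UMIs. Over the same 4 bins H2-Aa went from 3430.3 to 4615, 5843 and 4656 CPM in WT cells and from 11299 to 11823, 11420.1 and 11539 CPM in KO cells. Genotype mix was not held constant for the other genes of this paragraph. Median depth per cell in the 8 bins lay between 13447 and 15744 UMIs.

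**Figure D4:**
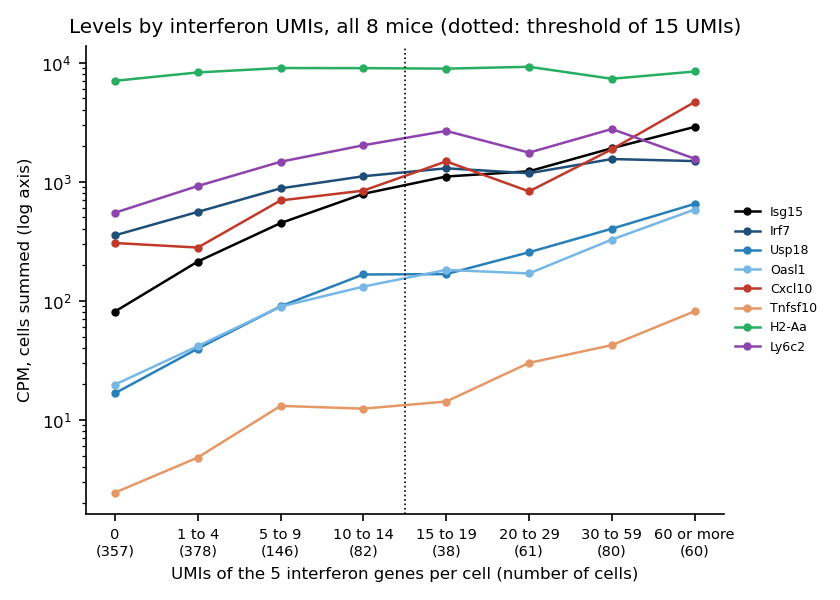
CPM (log axis) of 8 genes in cells grouped by their UMIs of the 5 rule genes, all 8 mice summed, with the number of cells under each bin and a dotted line at the threshold of 15 UMIs. Usp18, Oasl1 and Tnfsf10 climb on both sides of the line, Irf7 mostly to its left, and H2-Aa stays between 7027 and 9215 CPM.

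The same 5-gene threshold was applied to the C1q-gated cells with 2 or more microglial UMIs, which are other cells of the same mice (2602 cells; with a mouse and 15 or more UMIs, 189 WT and 117 KO cells). Here every mouse entered the comparison, WT mouse 1 included with 23 cells of 15 or more UMIs, unlike in the comparison of the members. Of 9358 genes tested there, 559 were higher (5.97%) and 460 lower (4.92%). The Ifi200 family was higher in 13 of 13, the GTPases in 18 of 18, the antiviral effectors in 38 of 42 and the sensors in 12 of 19 genes, and class II in 0 of 10. Usp18 rose by 2.84 (adjusted p = 7.07e-10), Cxcl10 by 3.08, Ly6c2 by 1.33 and Fcgr1 by 0.86, and Ifngr1 fell (-0.51, adjusted p = 1.48e-04). The cell cycle list had 3 of 15 lower, Top2a had -0.55 (adjusted p = 0.0779), and Ccl2 0.38 (adjusted p = 0.231). A direct test of the difference between the 2 sets of cells left out WT mouse 1, as the comparison of the members did. It called 0 of 9468 genes with edgeR, and 568 had an unadjusted p under 0.05.

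CaMKK2 KO and WT mice were then compared within the members. Camkk2 itself, which encodes a calcium-dependent kinase and is the targeted gene, stood at 31.0, 29.6, 33.9 and 29.5 CPM in the C1q-gated macrophages of the 4 WT mice and at 13, 11.5, 11.8 and 16.8 CPM in those of the 4 KO mice, members included. It was lower in each KO mouse and not at 0. Reads outside the deleted part would still be counted, but where the reads of the KO mice lie in the gene was not tested. The median share of mitochondrial UMIs in the members was 2.40% ± 0.471 in WT and 1.61% ± 0.371 in KO mice (mean ± SD over 4 mice; exact permutation test, two-sided, p = 0.0286, the smallest these numbers allow; adjusted p = 0.171 over 6 such exact tests). Its part in the differences below was not tested. Of 6335 genes tested between 3 WT and 4 KO mice, 92 were higher (1.45%) and 84 lower (1.33%) in KO members, 2.78% in all, with a median log2 fold change of -0.04 over all genes. These counts moved with single mice: 56 and 46 without WT mouse 3, 55 and 42 without WT mouse 4, 150 and 127 without KO mouse 1, 61 and 53 without KO mouse 2, and 47 lower without KO mouse 4. In the other C1q-gated macrophages, where WT mouse 1 could be included (4 WT and 4 KO mice), 94 of 6564 genes were higher (1.43%) and 92 lower (1.4%), 2.83% in all. Without WT mouse 1, which leaves the 7 mice of the members, 81 were higher and 86 lower. The counts were 36 to 130 and 45 to 101 when single mice were left out. They were 44 and 57 without WT mouse 2, 36 and 45 without WT mouse 4, 42 and 51 without KO mouse 2, and 51 and 58 without KO mouse 4.

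The lists of the interferon response differed in how many of their genes were called between the genotypes. Usp18 stood at 288, 450.1 and 456 CPM in WT and 427, 339.7, 366 and 452 CPM in KO mice. On the log2 scale the fold change was -0.01 ± 0.17 (adjusted p = 0.996). Irf7 (0.32, adjusted p = 0.28), Oasl1 (0.38, adjusted p = 0.238) and Cxcl10 (0.49, adjusted p = 0.261) did not pass the threshold, which does not show that they were equal. Of 42 antiviral effectors 3 were higher in KO members and none lower (median 0.10), namely Ifi44, Ifi44l and Gbp2, beside 1.45% of all genes tested. The count was 5 of 41 without KO mouse 1 and 6 of 43 with no filter beyond 1 UMI. Of the Ifi200 family 2 of 13 were higher and 5 lower and of the GTPases 4 of 17 were higher (2 of 16 with a threshold of 30 UMIs and 8 of 22 with no filter beyond 1 UMI), as described below. None of 18 sensors, 12 receptor and JAK-STAT genes, 6 PARP genes, 5 ISG15 conjugation genes and 11 negative regulators was called. Of 6 IRFs 1 was higher, Irf1 (0.79, adjusted p = 0.0428), which lost its call without each of WT mice 2 and 3 and KO mice 2 and 4. The median of the 5 rule genes' UMIs per cell was 36.8 ± 3.57 in WT and 31.8 ± 8.51 in KO mice (mean ± SD, n = 4 each), given as a description. WT mouse 1, included here with its 4 members, stood at 31.5 and the other WT mice at 37.5, 39 and 39. Isg15, a marker of the cells and not tested, stood at 1563 to 1755 CPM in WT and 1766 to 2214 CPM in KO members, and the genotypes did not overlap, as in 5.41% of all genes tested with KO above and 7.56% with KO below.

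MHC class II genes were higher in KO members. Of 9 tested, 7 were higher and none lower (median 1.24), and the same count of 7 was found in each of the 20 alternative settings. H2-Aa stood at 3613, 5265 and 5721 CPM in WT and 10924, 12566, 11969 and 10510.4 CPM in KO mice. This was a log2 fold change of 1.24 ± 0.15 (adjusted p = 6.55e-05). Every KO mouse lay above every WT mouse. Ciita, the transactivator of class II genes, stood at 74.7, 78.0 and 74.5 CPM in WT and 184, 249, 244 and 242 CPM in KO mice. The log2 fold change was 1.59 ± 0.18 (adjusted p = 1.91e-05). For Cd74, the invariant chain, the log2 fold change was 1.06 ± 0.14 (adjusted p = 1.53e-04). In the other macrophages of the same 7 mice the log2 fold change was 1.45 ± 0.11 (adjusted p = 5.91e-05) for H2-Aa, 2.12 ± 0.20 (adjusted p = 1.93e-04) for Ciita and 1.26 ± 0.12 (adjusted p = 1.93e-04) for Cd74. With WT mouse 1, low in H2-Aa and Cd74 in these cells, it was 1.62 ± 0.19 (adjusted p = 5.30e-04), 2.35 ± 0.28 (adjusted p = 6.69e-04) and 1.43 ± 0.19 (adjusted p = 0.00181). Over all genes tested in the other macrophages of the 8 mice, 4.81% had every KO mouse above and 6.52% every KO mouse below the WT mice. Of the class I list 2 of 24 were higher, Tap1 (0.55) and H2-M3 (0.67), and this was 0 of 24 without any of the 3 WT mice or KO mice 2 or 4 and 6 of 24 without KO mouse 1. It was 0 with cells thinned to 10000 UMIs, with outlying cells left out and with a threshold of 30 UMIs, and 4 with TMM scaling and with no filter beyond 1 UMI.

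Of 14 chemokine genes 3 (Cxcl9, Ccl5 and Cxcl13) were higher and 2 lower in KO members. The counts were 1 and 0 without WT mouse 3, 2 and 0 without WT mouse 4, 2 and 2 without WT mouse 2, 3 and 3 without KO mouse 1, and 3 and 1 without KO mouse 2 or KO mouse 4. They were 2 and 2 with DESeq2, 3 and 1 with cells thinned to 10000 UMIs, 7 and 3 with no filter beyond 1 UMI, 2 and 0 with a microglial limit of 10 UMIs, and 3 and 0 with a threshold of 30 UMIs. Cxcl9 stood at 489, 1407 and 449 CPM in WT and 3494, 5687, 2534 and 3318 CPM in KO mice. On the log2 scale the fold change was 2.26 ± 0.34 (adjusted p = 5.60e-04), and every KO mouse lay above every WT mouse. In the other macrophages the log2 fold change was 1.74 ± 0.37 (adjusted p = 0.0355) in the same 7 mice and 2.14 ± 0.82 (adjusted p = 0.2) with WT mouse 1. Ccl5 stood at 645, 588 and 750.0 CPM in WT and 689, 4296, 2222 and 5734 CPM in KO mice. This was a log2 fold change of 2.29 ± 0.44 (adjusted p = 0.00602). KO mouse 1 lay within the WT range, and the call was lost without WT mouse 3. Of 17 interferon-inducible GTPases 4 were higher, Gbp2 (log2 fold change 1.29 ± 0.20, adjusted p = 8.52e-04), Gbp4 (1.04), Gbp5 (1.12) and Iigp1 (0.93, lost without each of WT mice 2, 3 and 4 and KO mice 1 and 2). Il1rn stood at 254, 266 and 213 CPM in WT and 383, 1146, 540.2 and 920.4 CPM in KO mice. The log2 fold change was 1.62 ± 0.28 (adjusted p = 0.00243). The mitochondrial superoxide dismutase Sod2 (1.30) and the complement gene C3 (1.37) were higher too. Nos2, the inducible nitric oxide synthase, held 11 UMIs in the WT and 158 in the KO members (ratio 11.1, 95% counting interval 6.05 to 22.7). It stood at 6.79, 5.32 and 8.86 CPM in WT and 1.67, 139, 93.4 and 92.8 CPM in KO mice. KO mouse 1 was below the 3 WT mice. The call (adjusted p = 0.022) was lost with DESeq2 and without each of WT mice 2, 3 and 4 and KO mice 2 and 4. The chemokines Ccl3 (-1.17) and Ccl4 (-0.81) were lower, and both calls were lost without WT mouse 3 or WT mouse 4, that of Ccl4 also without KO mouse 2 or KO mouse 4. Of 6 classical monocyte markers 1 was higher and none lower (median -0.03). It was Ly6c2 (1.04, adjusted p = 0.0107), whose call was lost without WT mouse 2 or WT mouse 3, with a threshold of 30 UMIs, with a microglial limit of 10 UMIs and with WT mouse 1 included.

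The Ifi200 family went both ways, with 2 of 13 genes higher and 5 lower in KO members, a count that was the same when any 1 mouse was left out. Ifi205 stood at 211, 237 and 282 CPM in WT and 50.2, 51.2, 52.8 and 51.7 CPM in KO mice. On the log2 scale the fold change was -2.24 ± 0.17 (adjusted p = 2.45e-07), and the KO mice lay close together. Ifi213 (-4.59), Ifi206 (-2.31), Ifi208 (-1.55) and Ifi211 (-1.29) were lower and Ifi214 higher (1.72), while Ifi204 had -0.17 (adjusted p = 0.612). Ifi202b held 0 UMIs in the WT members and 1443 in the KO members, at least 372-fold higher when WT is set to the limit of 3 UMIs over the group. In the other macrophages Ifi202b held 0 and 1674 UMIs, at least 482-fold higher in KO. In cells with Cd3e, Ifi202b stood at 0 CPM in 4 of 4 WT mice and 40.2 ± 41.0 CPM in KO mice and Ifi213 at 47.2 ± 20.2 and 4.13 ± 1.90 CPM, with no overlap between the genotypes. Of the 7412 genes with 200 UMIs or more in these cells, 8% had every KO mouse above and 3.47% every KO mouse below the WT mice. Ifi206, Ifi208, Ifi209 and Ifi214 (39.2 against 72.9 CPM for Ifi214) overlapped there, as did Ifi205 (7.05 ± 7.27 against 5.14 ± 6.89 CPM). In cells with Cd79a, where these shares were 4.78% and 1.41% of 1275 genes, every KO mouse lay above every WT mouse for Ifi214 (44.7 against 150.4 CPM). The genotypes overlapped there for Ifi202b (0 CPM in WT and 5.33 ± 6.36 CPM in KO mice, with KO mouse 3 at 0) and for Ifi213 (31.3 ± 19.6 against 10.8 ± 11 CPM).

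**Figure D5:**
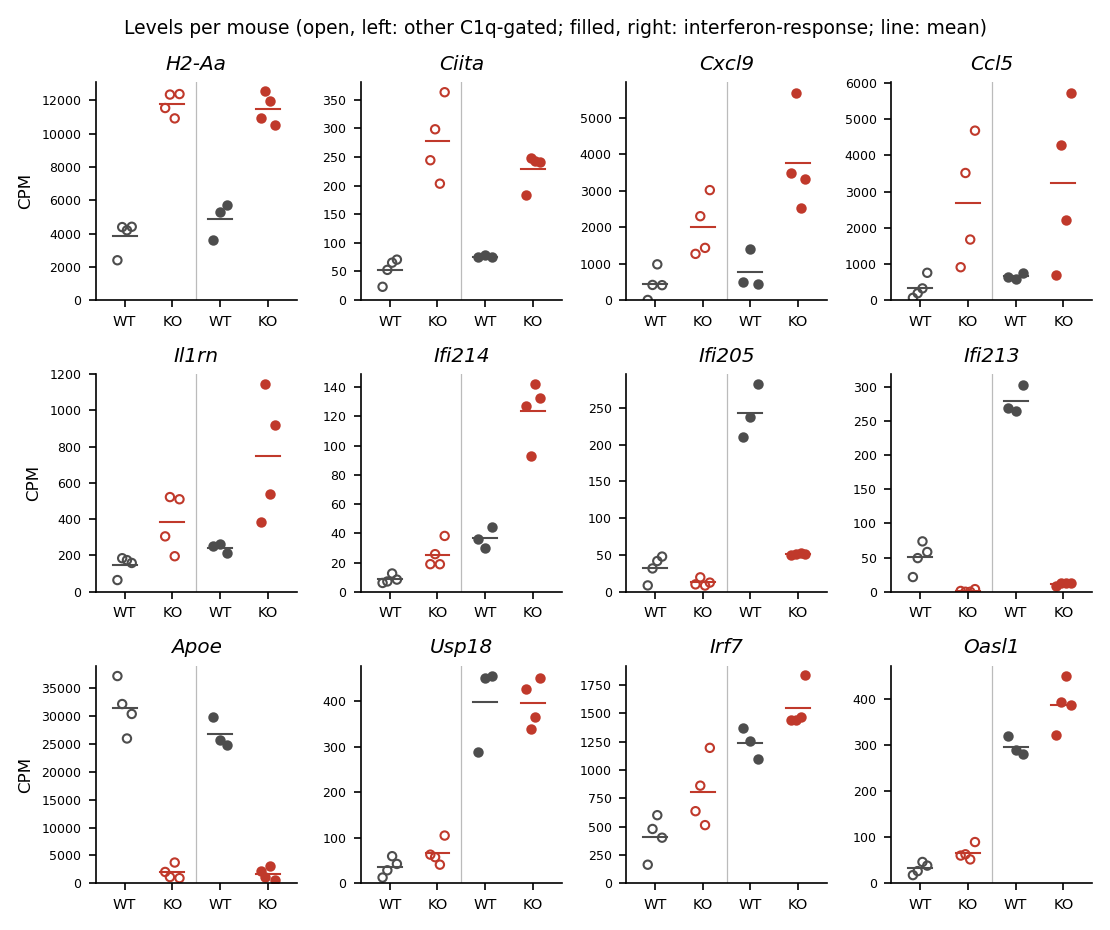
CPM of 12 genes for each mouse in the other C1q-gated (open points, 4 WT and 4 CaMKK2 KO mice) and the interferon-response macrophages (filled points, 3 WT and 4 KO mice), with the mean as a line. H2-Aa, Ciita, Cxcl9, Il1rn and Ifi214 lie higher and Ifi205, Ifi213 and Apoe lower in each KO mouse among the members, while Usp18 overlaps between the genotypes.

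The genes most raised in KO members included several with almost no UMI in WT members. Ifi44l, an interferon-induced gene, held 0 against 798 UMIs (at least 206-fold higher). Ifi44 beside it stood at 109, 78.0 and 106 CPM in WT and 775, 784, 914 and 987 CPM in KO mice. This was a log2 fold change of 3.15 ± 0.18 (adjusted p = 2.65e-09). Cxcl13, a B cell attractant, held 1 UMI in the WT and 817 in the KO members (ratio 632, 95% counting interval 113 to 25010.2). The size of this difference rested largely on KO mouse 1: the log2 fold change was 8.70, and 5.80 without that mouse. It was 2.33 with a microglial limit of 10 UMIs. The call was lost without each of the 3 WT mice, with a threshold of 30 UMIs and with a microglial limit of 10 UMIs. DESeq2 gave no adjusted p for Cxcl13. The GTPase-like Gm4841 held 2 against 254 (ratio 98.3, interval 26.9 to 816) and the uridine phosphorylase Upp1 8 against 234 (ratio 22.6, interval 11.3 to 53.1), whose call was lost without WT mouse 4. Eif3j2 held 3 against 89 UMIs (ratio 23, interval 7.61 to 113) and Gm8797 14 against 386 (ratio 21.3, interval 12.6 to 39.4), and the reads of Eif3j2 may be split with its near copy Eif3j1. At the other end, Spint1 held 299 UMIs in the WT and 0 in the KO members (at least 129-fold lower in KO) and Gm34084 77 against 0 (at least 33.2-fold lower). Eps8 (-4.97), Arhgap19 (-3.34), Ncapg2 (-2.99) and AA467197 (-2.99) were lower. Apoe, the lipid carrier, stood at 29824, 25708 and 24729.6 CPM in WT and 2240.3, 1133, 3115 and 554 CPM in KO mice. The log2 fold change was -3.94 ± 0.37 (adjusted p = 3.15e-06). In the other macrophages it was -3.90 ± 0.41 (adjusted p = 3.76e-04) in the same 7 mice. In cells with Cd3e, too, the genotypes did not overlap for Eif3j2, Gm8797, Ifi44l and Apoe, which stood at 2.53 against 38.1, 7.02 against 191, 0 against 16.3 and 320.5 against 28.5 CPM in WT and KO mice (means, n = 4 each). The same held for Ifi44 and Cxcl13, while Upp1 (10.2 against 10.6 CPM), Gm4841, Spint1, Eps8, Arhgap19, Ncapg2, AA467197 and Gm34084 overlapped in these cells. In cells with Cd79a the genotypes did not overlap for Eif3j2 and Gm8797 either, but did for Ifi44l, which KO mouse 3 held at 0, and for Apoe, with KO mouse 2 at 1831 CPM above the 4 WT mice (1122 to 1788 CPM). Free RNA can give UMIs of macrophage genes such as Apoe in lymphocytes, and its part was not tested.

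The genotype effect was not shown to differ between interferon-response and other C1q-gated macrophages. The interaction term called 0 of 6956 genes with edgeR, where 356 had an unadjusted p under 0.05, and DESeq2 called 2, AA467197 and Ly6a, both lower; with TMM scaling and with a filter of 50 UMIs Plac8 joined them. AA467197 stood at 534, 491 and 424 CPM in WT and 38.5, 118, 44.7 and 39.6 CPM in KO mice in the members. In the others it stood at 298, 447 and 172 CPM in WT and 95.2, 156, 69.4 and 68.8 CPM in KO mice. The interaction was -1.50 ± 0.27 on the log2 scale (adjusted p = 0.057). Ly6a, an interferon-induced surface protein, had an interaction of -0.86 (adjusted p = 0.057) and Plac8 -0.73 (adjusted p = 0.0588); these 3 were named after their values were seen. Without WT mouse 3, 2 genes were lower, and without KO mouse 3, 2 were higher and 6 lower, and without KO mouse 4, 2 were higher.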

How the data were processed

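Live CD45+ cells of CT2a gliomas from 4 CaMKK2 WT and 4 CaMKK2 KO mice were profiled by Chromium 3′ sequencing, with 1 gene expression and 1 hashtag library per genotype. The authors deposited raw UMI counts per gene or hashtag and cell. Per the labels and methods, reads were processed with bcl2fastq 2.20, Cell Ranger 4.0.0 and STAR 2.7.5c on mm10. Doublets were treated only by hashtags: HTODemux (Seurat 5.3.0, quantile 0.99) gave each cell a mouse, and doublets and negatives were left out, while Scrublet (scanpy 1.11.5) served as an alternative. Genotype is the label of the library, and mice were told apart by hashtag alone.

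Counts were summed per mouse and compared with edgeR 4.0.16 (quasi-likelihood test, Benjamini-Hochberg adjustment, total UMIs without the rule genes as library size, R 4.3.3) over genes with at least 200 UMIs, or 50 UMIs for genotypes within the members, and for mice with at least 10 member cells. The comparison of members with other macrophages and the interaction used mouse as a block, since both groups come from the same animals. A fold change is on the log2 scale, with its standard error. CPM are UMI counts scaled to 1000000 UMIs of the summed cells, without the rule genes in the values per mouse of tested genes. Single values per mouse were compared by two-sided exact permutation tests. The fits were tested on simulated data. Counts depend on the depth of each mouse, and intervals and floors (3 UMIs over a group) cover counting error only. The alternatives were DESeq2 1.42.0, TMM scaling, other filters and thresholds, thinning to 10000 UMIs, no block, and leaving out each mouse; a microglial limit of 10 UMIs and the inclusion of mice with 1 cell or more were chosen after seeing the data.

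The members and gene lists were chosen with earlier results of these data known. From each list, up to 4 genes of highest mean CPM and those counted in the text were named, and beyond the lists the 12 highest and 12 lowest in the comparison with other macrophages and the 8 each way between genotypes, past an adjusted p of 0.05, with at least 20 CPM in the higher group and the same sign in every mouse or no overlap of the genotypes. The rows of 31107 of 31253 genes were matched to GENCODE M21 for coordinates. Promoter sequences are from RefSeq (GRCm38.p6), where 5641 of the 6956 genes tested had a window. Some genes of these lists are not reported here by name.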

Additional observations from a re-analysis of the deposited data

Results flagged for a closer look

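Of 414 sets of 4 mice checked, 28 had a mouse far from the other 3 (by Dixon's criterion, which chance meets in about 1 set in 20). The criterion is relative to the range of the 4 values, so a flagged difference can be small where the other 3 nearly coincide.

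WT mouse 1 stood apart in the other C1q-gated macrophages in several values. It was low in H2-Aa (2394 CPM, others 4194 to 4405), Cd74 (6316 CPM), H2-DMb1 (254 CPM), Tubb5 (316 CPM), Stmn1 (24.1 CPM), Adar (23.2 CPM) and Tlr3 (6.02 CPM). It was high in Tspan4 (67.9 CPM). Its median of 12153 UMIs per cell was the lowest of the WT mice and its median mitochondrial share of 2.78% the highest. Among WT mice, WT mouse 3 was high in Sod2 (226 CPM) and Ccl7 (211 CPM) in these cells.

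Among KO mice, KO mouse 1 had high Mgl2 (35.1 CPM, others 0 to 4.06) and Cd81 (296 CPM, others 52.8 to 89.2) in the members. It had low Ifi204 (880.1 CPM, others 931 to 934), H2-D1 (3716 CPM, others 4525 to 4623) and Ciita (184 CPM, others 242 to 249) there. In the other macrophages it had high H2-DMb2 (99.4 CPM) and Ccl7 (378 CPM). KO mouse 2 had high AA467197 (118 CPM, others 38.5 to 44.7) and Tap1 (556 CPM, others 470 to 475) in the members. KO mouse 3, with the fewest members of the 7 mice used, had high Eps8 (12.2 CPM), Tlr7 (102 CPM) and Usp25 (223 CPM) in the members, and high Tlr7 (54.1 CPM) and low H2-DMa (931 CPM) in the other macrophages. KO mouse 4 had high Irf7 (1836 CPM) in the members and high Gm13822 (22 CPM) in the others.

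Of 132 genes checked, 1 moved in opposite directions in the genotypes: AA467197 was higher in the members than in the other macrophages of the 3 WT mice and lower in the 4 KO mice, with an interaction of -1.50 on the log2 scale (edgeR adjusted p = 0.057).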

How the results depend on the processing

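The share of interferon-response macrophages moved from 3.00 percentage points to between -1.66 and 6.38 when single mice were left out, and to between 1.23 and 6.50 under the other settings that took a share of gated macrophages (0.392 as a share of all barcodes, where the shares themselves are smaller); it was negative without WT mouse 1 (-1.66) and without KO mouse 4 (-1.39). For members against other macrophages, the genes higher numbered 406 with a filter of 1000 UMIs and 379 with no replicate block, and 535 to 594 without single mice. The genes lower numbered 367 with TMM scaling, 123 with DESeq2, 419 with a filter of 1000 UMIs, 249 with no replicate block, 410 with cells thinned to 10000 UMIs, 1278 with a microglial limit of 10 UMIs, and 468 to 594 without single mice. With WT mouse 1 included, 609 were higher and 679 lower. Fewer genes were tested with the higher filter and the thinned cells, and more with the wider microglial limit; otherwise the cause was not tested. The mouse is the block of this comparison, and 32 of the named genes lost their call without it.

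Between genotypes within the members, 196 genes were higher and 185 lower with no filter beyond 1 UMI, 42 and 29 with a threshold of 30 interferon UMIs, 51 lower with DESeq2 and 49 lower with thinned cells, and 55 to 150 higher and 42 to 127 lower without single mice. In the other macrophages, 198 were higher with DESeq2, 45 higher and 42 lower with a filter of 1000 UMIs, and 36 to 130 higher and 45 to 101 lower without single mice. The interaction gave 3 lower genes with TMM scaling, 2 with DESeq2 and 3 with a filter of 50 UMIs, and without single mice 0 to 2 higher and 0 to 6 lower. No paired analysis was possible because WT and KO mice are different animals and the hashtag numbers do not tie them together. Of the values of named genes under all these alternatives, none changed sign while called. In the comparison with other macrophages 2031 values kept their side of the threshold, 111 lost and 12 gained a call. Between genotypes these numbers were 927, 92 and 3. Genes that were not called could change sign, as H2-Aa did in the comparison with other macrophages (-0.08 to 0.12). The settings named beside a gene as losing its call are not always all of them. The limits are 17 to 45 members per mouse used, 1 channel per genotype, possible differences of line between genotypes, and free RNA. Free RNA was not removed.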
